A study of Danio rerio with 19 samples.

Results

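In the tail fin of larval zebrafish, 59 of the 32520 genes counted were near absent from uninjured tissue and present in every genotype 24 h after a severe injury. They were chosen by their own levels, expressed as CPM, a gene's read count divided by the total of its library and multiplied by 1000000. A gene was a member if its mean was under 0.5 CPM over the 9 uninjured libraries and 3 CPM or more in each injured group, where the injured *yap1* group entered with replicates 1 to 3. The choice also left out 5 gene IDs, none of which met these limits. The uninjured limit alone was met by 15404 genes and the injured limit alone by 12237. Because injury chose the members, their difference between uninjured and injured tissue is given as a description, without a test.

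The libraries were bulk RNA-seq of tail fins pooled from embryos of the WIK strain, all collected at 4 dpf. The injured larvae had been cut by the severe paradigm at 3 dpf. WT, *yap1* Crispants and *wwtr1* Crispants were compared, each uninjured and injured, with 3 libraries a group and 4 of injured *yap1* Crispants, 19 in all. Crispants are larvae grown from embryos injected with Cas9 and guide RNAs, so that their cells carry a mixture of edits. *yap1* and *wwtr1* encode Yap1 and Taz, the co-transcriptional mediators at the end of the Hippo pathway. Neither the labels nor the methods say whether the WT larvae of these libraries had been injected. Replicates were labelled as biological.

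A wound in the larval fin is closed by epidermis and entered by neutrophils and macrophages, which are drawn by chemokines, lipid mediators and complement fragments. Migrating epidermis rebuilds its basement membrane, and hyaluronan and other matrix are laid down beneath it. Genes made only by cells that arrive at a wound, or only by cells in a wound state, can be nearly silent in the intact fin.

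Total counts ran from 28081131 to 80837847 per library (median 44618000), so that 3 counts, taken as the floor of detection, corresponded to 0.0371 to 0.0755 CPM in the uninjured libraries. Intervals and floors cover counting error only. Epidermal markers (7 of 7 matched) were abundant in all libraries, at 61479 to 133618 CPM summed, as the tissue label requires. *yap1* transcript averaged 276 CPM in injured WT and 205 CPM in injured *yap1* Crispants (log2 fold change −0.41, edgeR adjusted p = 0.72), and *wwtr1* transcript 0.891 and 1.02 CPM in injured WT and *wwtr1* Crispants (log2 fold change 0.13, adjusted p = 1.00). Transcript level does not check a coding edit. *wwtr1* was called higher in uninjured *yap1* Crispants than in uninjured WT (3.68 and 0.80 CPM, edgeR adjusted p = 0.0433). Its libraries ran from 2.17 to 6.45 and from 0.60 to 1.13 CPM. In the paper, Western blots of pooled larvae at an earlier stage found Yap1 nearly absent from *yap1* Crispants and Taz nearly absent from *wwtr1* Crispants. They showed no change of Taz protein in *yap1* Crispants. Markers of other tissues varied between libraries, with erythrocyte markers at 5.10 to 196 CPM summed over the uninjured libraries. Of the uninjured libraries, *yap1* replicate 3 stood apart in the members and was high in white blood cell genes. Of the injured ones, *yap1* replicate 3 was the lowest for 27 members. Injured *yap1* replicate 4 was the lowest for 9 and the highest for 11. It held 93.9 CPM of 3 lens and eye crystallins, against 0 to 0.18 CPM in the other injured libraries. In the uninjured libraries these ran from 0 to 71.4 CPM.

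The 59 members together made up 9.53 to 46.3 CPM of an uninjured library and 393 to 644 CPM of an injured one. Their means over the uninjured libraries ran from 0.0045 to 0.499 CPM (median 0.309). No member was at 0 in all 9 uninjured libraries, though 27 had no count in at least 1. In injured tissue the median member stood at 6.04 CPM in WT, 5.18 CPM in *yap1* Crispants and 6.22 CPM in *wwtr1* Crispants. For 56 members, the lowest of the 10 injured libraries lay above the highest of the 9 uninjured ones. The other 3 were *rnaset2l*, *si:dkey-21e2.15* and ENSDARG00000112796. All 59 passed the filter on low counts, which all of them could pass through their injured libraries. In these bulk samples, a lower level from fewer cells of a type and one from less RNA per cell cannot be told apart.

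**Figure D1:**
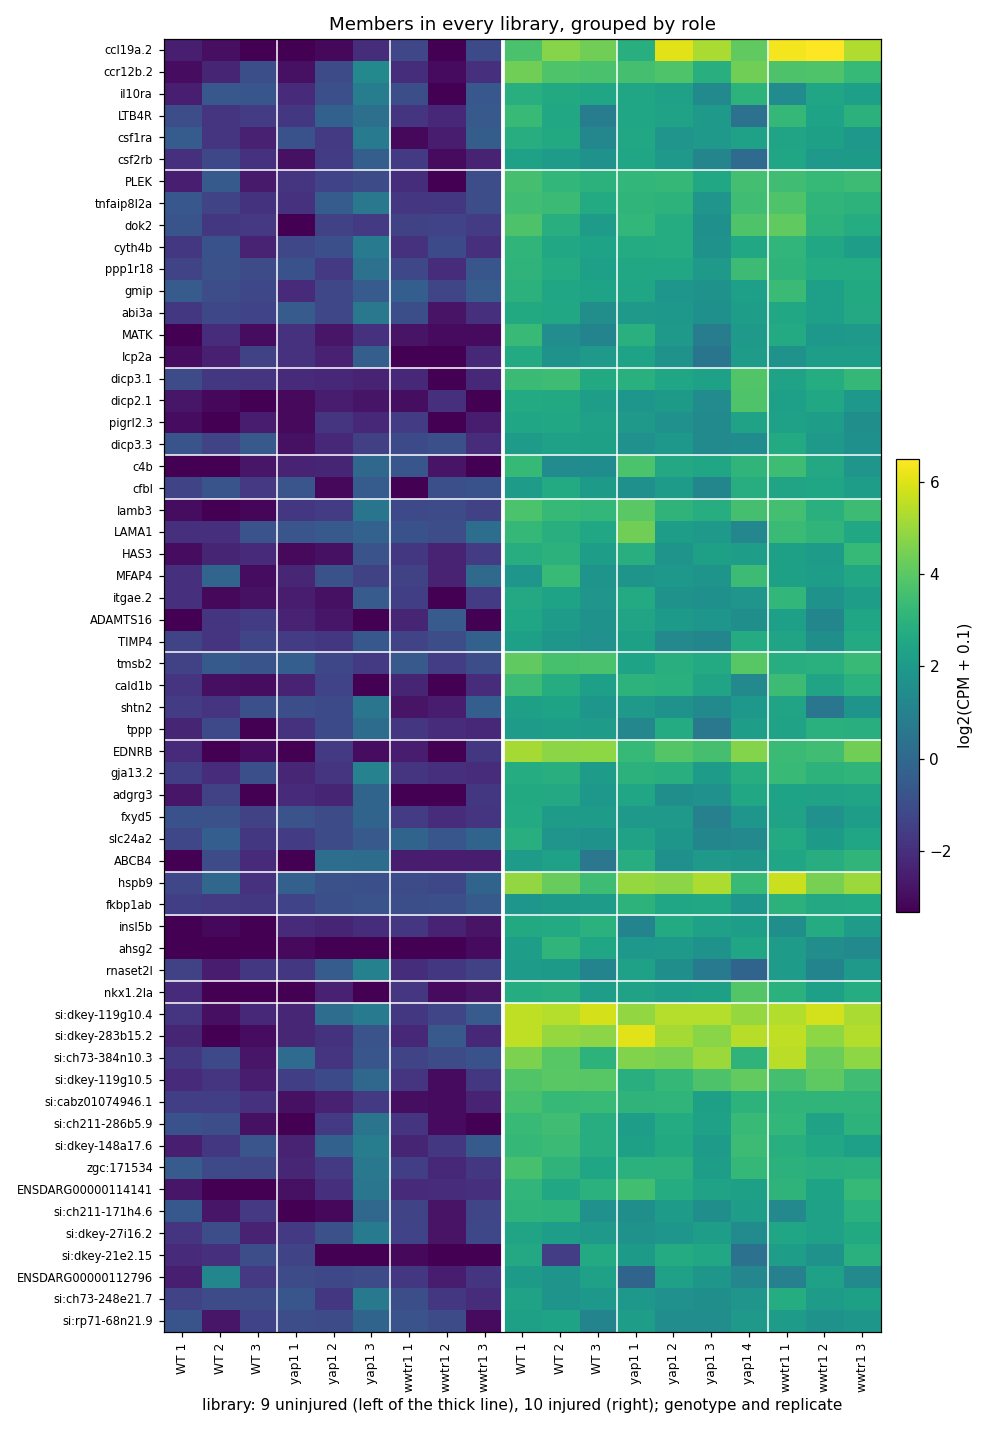
Level of the 59 members (rows, grouped by role and, within a role, by mean in injured WT) in the 19 libraries (columns), as log2(CPM + 0.1). The 10 injured libraries at the right stand above the 9 uninjured ones in nearly every row, and uninjured *yap1* replicate 3 is brighter than its neighbours in many rows.

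The limits cut through a continuous range of levels. Just inside the uninjured limit were *LAMA1*, *slc24a2* and *hspb9* (0.499, 0.498 and 0.491 CPM), and just outside it *si:ch211-102c2.4*, *si:ch211-284o19.8* and ENSDARG00000033587 (0.508, 0.515 and 0.527 CPM). At the injured limit, the lowest group mean was 3.02 CPM for ENSDARG00000112796, 3.03 for *dicp3.3* and 3.05 for *TIMP4*, and 2.99 for *si:ch73-322b17.3*, 2.88 for *sgk2b* and 2.86 for *GDA*, which were left out. Symbols are spelled as in the reference table of gene names, which gives some in capitals. *EDNRB* was ENSDARG00000053498, a symbol that 2 IDs carry, *TIMP4* was ENSDARG00000111805 (3 IDs) and *MFAP4* was ENSDARG00000090557 (8 IDs).

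Among the extracellular signals, *ccl19a.2*, a chemokine of the family that guides white blood cells, had the widest relative range over the injured libraries of the members given a role here. In injured WT it stood at 12.8, 26.1 and 20.5 CPM, in *yap1* Crispants at 7.20, 66.4, 38.1 and 16.8 CPM, and in *wwtr1* Crispants at 80.4, 90.02 and 39.7 CPM. All 3 *wwtr1* libraries were above all 3 of WT, whereas the *yap1* libraries fell on both sides. In the uninjured fin it ran from 0 to 0.359 CPM.

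Of the receptors for such signals, *ccr12b.2*, a chemokine receptor, stood at 20.5, 13.6 and 12.6 CPM in injured WT, 12.1, 13.9, 7.30 and 20.7 CPM in *yap1* Crispants, and 13.4, 13.6 and 9.32 CPM in *wwtr1* Crispants, so that the groups overlapped. *il10ra*, a chain of the receptor for the anti-inflammatory cytokine interleukin-10, ran from 2.49 to 8.13 CPM over the injured libraries. *csf1ra*, the receptor for the macrophage growth factor Csf1, ran from 2.21 to 6.79 CPM, and *csf2rb*, by its symbol a shared chain of cytokine receptors, from 0.983 to 5.52 CPM. *LTB4R*, a receptor for a leukotriene that attracts white blood cells, ran from 1.19 to 9.63 CPM. *csf2rb* and *LTB4R* had their lowest injured level in *yap1* replicate 4.

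A second group of 9 members encodes adaptors, kinases and regulators that in mammals act inside blood cells. *PLEK* (pleckstrin, a platelet and white cell protein) was among the steadiest members, at 5.80 to 12.1 CPM in the injured libraries, a ratio of highest to lowest of 2.09. *dok2*, an adaptor below tyrosine kinases, was more variable, with 13.5, 6.95 and 4.24 CPM in injured WT, 9.02, 6.58, 2.94 and 13.9 CPM in *yap1* Crispants and 17.1, 8.12 and 6.66 CPM in *wwtr1* Crispants. *tnfaip8l2a*, whose mammalian counterpart restrains immune signalling, ran from 3.36 to 13.7 CPM. For both, the genotypes overlapped. *cyth4b* (an exchange factor for Arf GTPases), *ppp1r18* (a phosphatase-binding protein), *gmip*, *abi3a* (of a family that regulates actin assembly), *MATK* (a kinase related to Csk) and *lcp2a* (an adaptor of immune receptors) had means of 4.43 to 6.42 CPM in injured WT.

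The immunoglobulin-domain receptors were at trace level in each uninjured library. *dicp2.1*, *dicp3.1* and *dicp3.3*, diverse immunoglobulin-domain proteins known from fish, did not exceed 0.569 CPM there, and *pigrl2.3*, related to the polymeric immunoglobulin receptor, did not exceed 0.235 CPM. In injured tissue *dicp3.1* stood at 10.2, 10.7 and 6.09 CPM in WT, 7.44, 5.45, 4.76 and 14.2 CPM in *yap1* Crispants and 4.91, 6.74 and 9.26 CPM in *wwtr1* Crispants. *dicp2.1* was at 6.30, 6.20 and 4.39 CPM in injured WT and at 3.47, 3.98, 2.57 and 13.7 CPM in injured *yap1* Crispants. Both were highest in *yap1* replicate 4. The complement genes *c4b*, for component C4, and *cfbl*, a relative of factor B, averaged 4.85 and 4.79 CPM in injured WT, with *c4b* running from 2.57 to 13.0 CPM over the injured libraries.

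The matrix and basement membrane genes included laminin chains, the enzyme *HAS3* that makes hyaluronan, a protease and an inhibitor. *lamb3*, whose mammalian product is the beta chain of the laminin that anchors epidermis, was at 13.2, 9.40 and 8.85 CPM in injured WT, 15.8, 8.31, 6.80 and 12.1 CPM in *yap1* Crispants and 11.6, 7.38 and 10.5 CPM in *wwtr1* Crispants. The injured groups overlapped throughout. *LAMA1*, a laminin alpha chain, reached 20.7 CPM in injured *yap1* replicate 1 and was at 2.23 to 10.3 CPM elsewhere after injury. *HAS3* ran from 3.25 to 9.34 CPM, *itgae.2* (an integrin alpha chain) from 2.94 to 8.90 and *ADAMTS16* (a secreted metalloproteinase) from 2.18 to 5.47 CPM. *TIMP4* (an inhibitor of metalloproteinases) ran from 2.14 to 6.41 and *MFAP4* (by its symbol a microfibril-associated protein) from 3.26 to 10.5 CPM. Genes named *mfap4* also stand in the list of macrophage genes used below, so *MFAP4* was placed here by its symbol only.

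*EDNRB*, by its symbol an endothelin receptor, had the third highest mean in injured WT. It was at 35.8, 27.8 and 28.5 CPM in WT, 9.55, 14.4, 12.0 and 25.2 CPM in *yap1* Crispants and 10.1, 11.0 and 20.3 CPM in *wwtr1* Crispants. Every Crispant library was below every WT library. *tmsb2*, a thymosin beta that binds actin monomers, followed nearly the same course at 17.2, 12.3 and 12.5 CPM in WT, 5.14, 7.19, 6.27 and 15.2 CPM in *yap1* Crispants and 6.77, 7.41 and 9.63 CPM in *wwtr1* Crispants. Here *yap1* replicate 4 lay within the WT range. The remaining cytoskeletal members *cald1b* (caldesmon), *shtn2* (a shootin) and *tppp* (a tubulin-binding protein), and the membrane proteins *gja13.2* (a connexin), *adgrg3* (an adhesion G protein-coupled receptor), *fxyd5* (a regulator of the sodium pump), *slc24a2* (a cation exchanger) and *ABCB4* (a transporter), averaged 3.47 to 7.25 CPM in injured WT.

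*hspb9*, a small heat shock protein, was at 30.1, 18.6 and 10.7 CPM in injured WT, 30.2, 27.8, 39.4 and 9.98 CPM in *yap1* Crispants and 52.2, 22.1 and 32.5 CPM in *wwtr1* Crispants. *fkbp1ab*, a peptidyl-prolyl isomerase of the FKBP family, was at 3.51, 3.98 and 4.04 CPM in WT, 8.00, 5.34, 5.64 and 3.43 CPM in *yap1* Crispants and 7.76, 6.04 and 6.22 CPM in *wwtr1* Crispants. For *fkbp1ab*, all *wwtr1* libraries were above WT, and *yap1* replicate 4 was the only *yap1* library not above it. The secreted proteins were *insl5b* (of the insulin and relaxin family), *ahsg2* (a fetuin) and *rnaset2l* (a ribonuclease), with means of 6.69, 6.04 and 3.36 CPM in injured WT. *ahsg2* was the member nearest to silence before injury, with 1 count in each of 2 uninjured libraries and none in the other 7, against 2.47 to 8.38 CPM in the injured libraries. The homeobox gene *nkx1.2la* was at 0 to 0.191 CPM before injury and 4.34 to 14.7 CPM after it.

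The 15 members given no role here held the 2 highest means in injured WT, *si:dkey-119g10.4* with 49.0 ± 8.20 CPM (SD, n = 3) and *si:dkey-283b15.2* with 35.12 ± 10.6 CPM (SD, n = 3). *si:dkey-119g10.4* was also the steadiest member, at 46.9, 42.0 and 58.0 CPM in WT, 29.4, 42.4, 41.8 and 30.9 CPM in *yap1* Crispants and 41.0, 56.3 and 37.6 CPM in *wwtr1* Crispants, a ratio of highest to lowest of 1.97. *si:dkey-119g10.5*, *si:cabz01074946.1*, *si:ch211-286b5.9*, *si:dkey-148a17.6* and *zgc:171534* followed with means of 8.70 to 15.0 CPM in injured WT. ENSDARG00000114141, *si:ch211-171h4.6*, *si:dkey-27i16.2*, ENSDARG00000112796, ENSDARG00000096331 and *si:rp71-68n21.9* averaged 3.97 to 7.32 CPM. The least even member was *si:dkey-21e2.15*, at 6.01, 0.246 and 6.37 CPM in injured WT, so that a single WT library was at its uninjured level. Over all members the ratio of highest to lowest injured library had a median of 3.19, and it was 5 or more for 15 and under 3 for 26. The widest ratios were 30.2 for *si:dkey-21e2.15*, 12.5 for *ccl19a.2* and 9.26 for *LAMA1*, and the narrowest beside *si:dkey-119g10.4* were 2.09 for *PLEK* and 2.11 for *adgrg3*.

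To ask whether loss of *yap1* or *wwtr1* altered how high these genes stood after injury, each injured Crispant group was compared with injured WT by edgeR's quasi-likelihood test over 20979 genes. A gene was called if its Benjamini-Hochberg adjusted p was under 0.05 and its log2 fold change over 1 or under −1. No member was called in *yap1* Crispants, where 0% of all genes tested were called, and none in *wwtr1* Crispants, again with 0% of all genes. At an unadjusted p under 0.05 there were 0 members and 1731 genes in the *yap1* comparison and 3 members and 1047 genes in the *wwtr1* comparison. DESeq2 also called 0 members, with 161 genes called in the *yap1* and 18 in the *wwtr1* comparison. Leaving out any 1 library left both counts of members at 0. The choice of members required 3 CPM or more in each injured group, so a gene lost from an injured Crispant group could not be a member, and the comparison covers only differences above that limit.

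Although single members were not called, most stood somewhat lower in injured *yap1* Crispants. The log2 fold change was negative for 43 of the 59, with a median of −0.21 beside 0.01 over all genes tested. Without replicate 4 it was negative for 50, with a median of −0.41, and without replicate 3 for 34, with a median of −0.11. Without WT replicate 1 it was negative for 38 (median −0.13) and without WT replicate 3 for 50 (median −0.34). With the replicate number as a block it was negative for 49 (median −0.42). In linear terms the median member had 0.838 times the WT mean, beside 1.00 for all genes. Of the *yap1* libraries, replicate 3 was the lowest of the 10 injured libraries for 27 members. In *wwtr1* Crispants 34 of the 59 were negative, with a median of −0.10 beside 0.01, and the median member had 0.972 times the WT mean, beside 1.07 for all genes. Members are not replicates of a condition, and no test was made over them.

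By role, the immunoglobulin-domain receptors were lower in both injured Crispant groups (median log2 fold change −0.34 and −0.40, with 3 and 4 of 4 negative, and −0.75 with 4 of 4 in *yap1* Crispants without replicate 4), and so were the 3 secreted proteins (−0.55 and −0.67, all negative in both, and −0.66 in *yap1* Crispants without replicate 4). The cytoskeletal members were lower in *yap1* Crispants (−0.38, or −0.47 without replicate 4, 4 of 4 negative in both) and divided in *wwtr1* Crispants (2 of 4 on each side). Both chaperones were higher in both (0.48, or 0.67 without replicate 4, and 0.73). The 9 adaptors had a median of −0.20 in *yap1* Crispants, or −0.46 with 9 of 9 negative without replicate 4, and the 7 matrix genes −0.02 or −0.28. In *yap1* and *wwtr1* Crispants, the 6 signal and receptor genes had −0.18 and −0.08 (5 and 3 negative). The 6 membrane proteins had −0.36 and 0.02 (4 and 3 negative), and the 15 members without a role −0.29 and −0.22 (12 and 10 negative). The complement genes had 0.31 and 0.19, and *nkx1.2la* 0.33 and −0.05. In *wwtr1* Crispants the adaptors had 0.04 and the matrix genes −0.13. Over all 59 members, 43 and 34 were negative. In *yap1* Crispants their median was −0.41 without replicate 4 and −0.11 without replicate 3. Replicate 3 was the lowest injured library for 27 members, most of the adaptors among them. No value by role is given without it, so the values without replicate 4 show only 1 side of this dependence. No member was called. The roles were assigned by hand after the members were known, and both comparisons share the 3 injured WT libraries.

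Some members had groups that did not overlap, which does not mark the largest differences. All 4 injured *yap1* libraries were below all 3 of WT for 4 members, *EDNRB*, *fxyd5*, *si:cabz01074946.1* and *dicp3.3*, which is 6.78% of the members beside 2.63% of all genes. None was above WT throughout, beside 2.53% of all genes. In the *wwtr1* comparison 5 members were below WT throughout (8.47%, beside 3.51% of all genes), namely *ahsg2*, *tmsb2*, *EDNRB*, *si:cabz01074946.1* and *pigrl2.3*. Another 5 were above it (8.47%, beside 7.95% of all genes), namely *ccl19a.2*, *fkbp1ab*, *ABCB4*, *tppp* and *gja13.2*.

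For *EDNRB* the mean was 30.7 ± 4.45 CPM in injured WT (SD, n = 3), 15.3 ± 6.88 CPM in *yap1* Crispants (SD, n = 4) and 13.8 ± 5.62 CPM in *wwtr1* Crispants (SD, n = 3). The log2 fold change was −0.94 (SE 0.55, edgeR adjusted p = 0.686) in *yap1* and −1.22 (SE 0.60, adjusted p = 0.993) in *wwtr1* Crispants. Without *yap1* replicate 4 the former was −1.40 (adjusted p = 0.535). *tmsb2* differed by −0.89 in *wwtr1* Crispants (SE 0.43, adjusted p = 0.993) and, without replicate 4, by −1.22 in *yap1* Crispants (SE 0.34, adjusted p = 0.377). Replicate 4, at 15.2 CPM, lay within the WT range. With it, the *yap1* mean was 8.46 ± 4.59 CPM (SD, n = 4), beside 14.0 ± 2.78 CPM in injured WT (SD, n = 3). *ccl19a.2* had the largest positive value in *wwtr1* Crispants, 1.70 (SE 0.69, adjusted p = 0.991), with *fkbp1ab* at 0.70 (SE 0.29, adjusted p = 0.991). *ahsg2* had −1.06 (SE 0.44, adjusted p = 0.991). These 3, with an unadjusted p under 0.05, did not hold after adjustment.

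**Figure D2:**
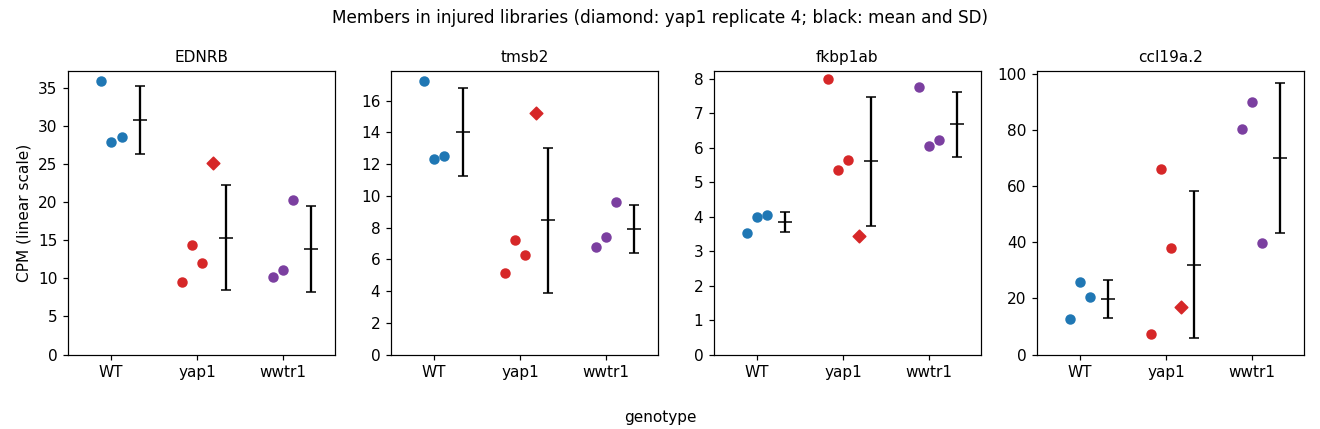
CPM (linear axis) of 4 members in the 10 injured libraries by genotype, with points for libraries and the black bar for the mean and SD of each group. *EDNRB* and *tmsb2* stand highest in WT, *fkbp1ab* and *ccl19a.2* in *wwtr1* Crispants. The diamond, *yap1* replicate 4, is the highest *yap1* library for *EDNRB* and *tmsb2* and the lowest for *fkbp1ab*.

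Injured *yap1* replicate 4 took no part in the choice of members. There, 48 of the 59 (81.4%) reached 3 CPM, beside 37.1% of all genes. The members had been required to average 3 CPM or more in each injured group and all genes had not, so these shares are not alike. Of the members, 58 were above their highest uninjured library. The exception was *rnaset2l*, at 0.805 CPM. It was the highest of the 4 *yap1* libraries for 23 members and the lowest for 12, whereas of 12851 genes with a mean of 3 CPM or more in injured tissue, 20.2% were highest and 47.9% lowest in it. *nkx1.2la* was at 14.7 CPM there and at 4.42 to 4.92 CPM in replicates 1 to 3, and *MFAP4* at 10.5 and 3.28 to 3.63 CPM. Beside the crystallins given above, this library had the highest summed fin mesenchyme markers of the injured libraries (6 of 8 matched). The sum was 53361 CPM against 22801 to 33652 CPM. In injured WT, where it ran from 22801 to 27936 CPM, *and1* averaged 20218 and *and2* 4908 CPM and made up most of it. The part of these marker levels in the members' levels was not tested.

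In uninjured tissue the members' trace levels differed between libraries. Their summed level was 12.5, 16.0 and 11.0 CPM in WT, 12.2, 16.8 and 46.3 CPM in *yap1* Crispants and 13.5, 9.53 and 17.2 CPM in *wwtr1* Crispants. Uninjured *yap1* replicate 3 thus stood apart from the other 8 libraries. It had 21 members at 1 CPM or more, against at most 2 in any other uninjured library, and was the highest uninjured library for 32 members (54.2%), beside 9.08% of all genes tested. Its level remained far below that of any injured library.

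**Figure D3:**
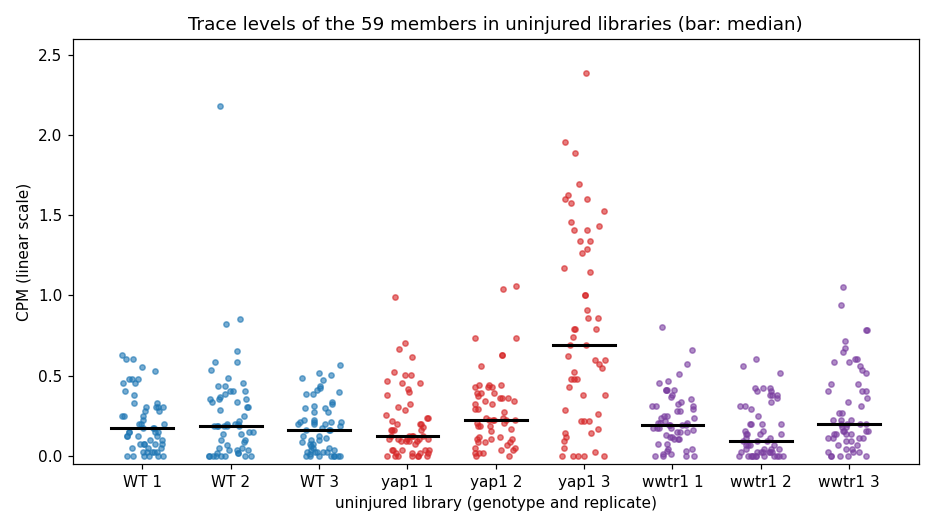
CPM (linear axis) of the 59 members (points) in each of the 9 uninjured libraries, with the black bar at the median. The median is 0.693 CPM in *yap1* replicate 3 and 0.0896 to 0.222 CPM in the other 8 libraries.

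Marker levels also set this library apart. It was the highest uninjured library in epidermal markers (133618 CPM against 89330 to 121949 CPM) and the lowest in notochord (364 against 474 to 622 CPM), neural (20.3 against 26.9 to 54.5 CPM) and endothelial markers (10.0 against 12.7 to 37.1 CPM), and it was high in white blood cell genes. The list of macrophage genes had 31 symbols, of which 21 were matched, and *mpeg1.1* was not among these. Of 20 macrophage genes that were not members, 14 were highest of the uninjured libraries in *yap1* replicate 3. Their sum without *apoeb*, which alone made up most of it, was 169 CPM there and 74.5 to 125 CPM in the other 8 libraries, against 438 to 658 CPM after injury. Of the 20, *timd4* was at 0 in this library, and 2, the complement genes *c1qb* and *c1qc*, were called higher in uninjured *yap1* Crispants. Of 10 neutrophil genes, 5 were highest in it, and their sum was 522 CPM against 78.9 to 211 CPM, or 80.4 against 15.0 to 33.7 CPM without *MMP9*, which made up most of it. *cxcr1* was at 0 in this library. Of the defining neutrophil markers that could be matched (2 of 4), *npsn* was at 13.4 CPM against 1.63 to 2.88 CPM, whereas *lyz*, at 0.478 CPM, lay within the range of the others, 0.0897 to 0.604 CPM. The members highest in the same library came from most roles, with 5 of the 6 signal and receptor genes, 6 of the 9 adaptors, both complement genes, 10 of the 15 without a role, 3 of the 6 membrane proteins, 3 of the 7 matrix genes, 2 of the 4 cytoskeletal genes and 1 of the 3 secreted proteins, and none of the 4 immunoglobulin-domain receptors, the 2 chaperones or *nkx1.2la*. The part of this tissue make-up in the members' trace levels was not tested.

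In the comparison of uninjured *yap1* Crispants with uninjured WT, 4 of the 59 members were called, all higher (6.78%, beside 2.24% of all genes called in either direction and 2.2% called higher). The choice of members used these uninjured levels, and the members passed the filter on low counts through their injured libraries, so nothing is read from this share. For the same reason, the fold changes, intervals and adjusted p of single members in uninjured tissue, given below, are a description and no evidence of an effect of genotype. With only the 2 groups fitted, 41 members passed the filter and 0 were called, and with at least 10 counts required in each library 8 passed and 0 were called. The members called in the fit of all libraries were *lamb3*, *si:dkey-119g10.4*, ENSDARG00000114141 and *insl5b*. Each of them had under 10 counts in every uninjured WT library. None could thus be among the 8 that passed, whose result does not bear on them. *insl5b* and ENSDARG00000114141 were also too low for the filter with only the 2 groups, so that fit does not bear on these either. At an unadjusted p under 0.05 there were 22 of the 59 members and 2145 of the 20979 genes. The median log2 fold change of the members was 1.2 beside −0.05 over all genes, and 49 of 59 were positive. Without replicate 3 the median was 0.33, 36 were positive and 1 member, *lamb3*, was called. DESeq2 called 9 of the 59 members, beside 774 of the 28239 genes it tested. The 9 were the same 4 and *si:dkey-119g10.5*, *rnaset2l*, *si:dkey-283b15.2*, *c4b* and *cyth4b*.

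*lamb3* was counted 1, 0 and 1 times in uninjured WT and 11, 14 and 54 times in uninjured *yap1* Crispants, or 0.0252, 0 and 0.0124 against 0.199, 0.239 and 1.29 CPM. Each *yap1* library was above each WT library. The pooled CPM were 45.7-fold apart, with an exact 95% interval of 12.2 to 383.7 from counting error alone. Its fitted log2 fold change was 5.55 (SE 0.89, edgeR adjusted p = 0.0026), and it was called with any 1 of the 6 libraries left out of the fit of all groups, though no member was called when only the 2 groups were fitted. Fitted fold changes against groups this close to 0 depend on the prior count and are no bounds.

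The other called members held less well when a library was left out. *insl5b* had 0, 1 and 0 counts in WT and 7, 6 and 6 in *yap1* Crispants (22.0-fold, interval 3.49 to 913, fitted log2 fold change 4.1, adjusted p = 0.0223), and it was called in 2 of the 6 fits with a library left out. *si:dkey-119g10.4* was at 0.176, 0.0335 and 0.111 CPM in WT and at 0.108, 1.04 and 1.53 CPM in *yap1* Crispants, so that replicate 1 lay within the WT range (8.42-fold, interval 5.12 to 14.6, log2 fold change 3.26, adjusted p = 0.0164, called in 2 of 6). ENSDARG00000114141 had 2, 0 and 0 counts in WT and 2, 9 and 56 in *yap1* Crispants (38.7-fold, interval 10.3 to 326, log2 fold change 5.34, adjusted p = 0.0196, called in 3 of 6). Without *yap1* replicate 3 their adjusted p were 0.0682, 0.0956 and 0.223.

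In uninjured *wwtr1* Crispants 0 members were called against uninjured WT, with 0% of all genes, and 13 members and 816 genes had an unadjusted p under 0.05. *lamb3* was at 0.352, 0.381 and 0.269 CPM, again with each library above WT (fitted log2 fold change 4.71, SE 0.92, edgeR adjusted p = 0.374, DESeq2 adjusted p = 0.0305). DESeq2 called no other member. *insl5b* was at 0.191, 0.0896 and 0.0448 CPM and *fkbp1ab* at 0.411, 0.426 and 0.583 CPM against 0.252, 0.218 and 0.198 CPM in WT. In uninjured *yap1* Crispants *fkbp1ab* was at 0.289, 0.427 and 0.478 CPM. All *wwtr1* libraries were above WT for 6 members (10.2%, beside 2.95% of all genes), *lamb3*, *insl5b*, *fkbp1ab*, *si:dkey-283b15.2*, ENSDARG00000114141 and *si:dkey-119g10.4*. They were below it for 5 (8.47%, beside 8.39%), *si:cabz01074946.1*, *si:dkey-21e2.15*, *fxyd5*, *dicp3.1* and *zgc:171534*. In *yap1* Crispants 7 members were above WT throughout (11.9%, beside 5.98% of all genes), *lamb3*, *insl5b*, *fkbp1ab*, *si:dkey-283b15.2*, *si:dkey-119g10.5*, *c4b* and *LAMA1*, and 2 were below it (3.39%, beside 13.4%), *dicp3.1* and *dicp3.3*. As with the calls, nothing is read from these shares. The *yap1* and *wwtr1* comparisons share the 3 uninjured WT libraries. The median log2 fold change of the members in *wwtr1* Crispants was 0.10 beside 0.00, with 31 of 59 positive.

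**Figure D4:**
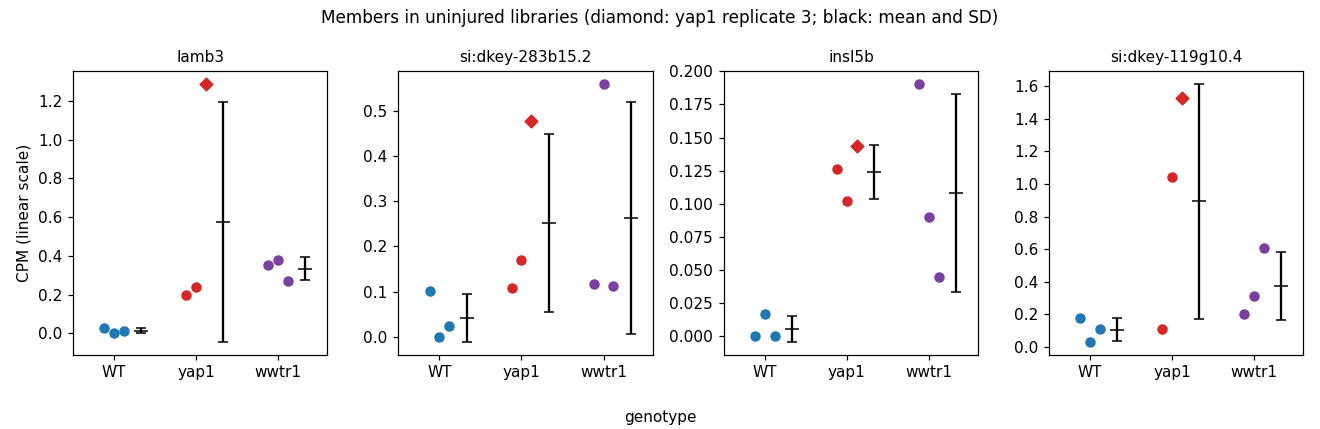
CPM (linear axis) of 4 members in the 9 uninjured libraries by genotype, with points for libraries and the black bar for mean and SD of each group. The diamond is *yap1* replicate 3, which reaches 1.29 CPM for *lamb3* and 1.53 CPM for *si:dkey-119g10.4*, and the WT libraries of *lamb3* lie between 0 and 0.0252 CPM.

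Some members kept a nearly fixed ratio to one another over the 10 injured libraries. The steadiest of the 1711 pairs was *hspb9* with *si:ch73-384n10.3*. *si:ch73-384n10.3* was at 23.6, 15.4 and 7.97 CPM in injured WT, 24.9, 22.9, 32.04 and 8.34 CPM in *yap1* Crispants and 44.0, 18.8 and 27.98 CPM in *wwtr1* Crispants. Although *hspb9* varied from 9.98 to 52.2 CPM, their ratio stayed between 1.16 and 1.34. The SD of its log2 was 0.06, against a median of 0.67 over all pairs. Before injury the ratio ran from 0.709 to 3.25 on 4 to 55 counts a gene. The annotation used does not show whether the 2 genes share sequence or overlap, which could tie their counts.

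**Figure D5:**
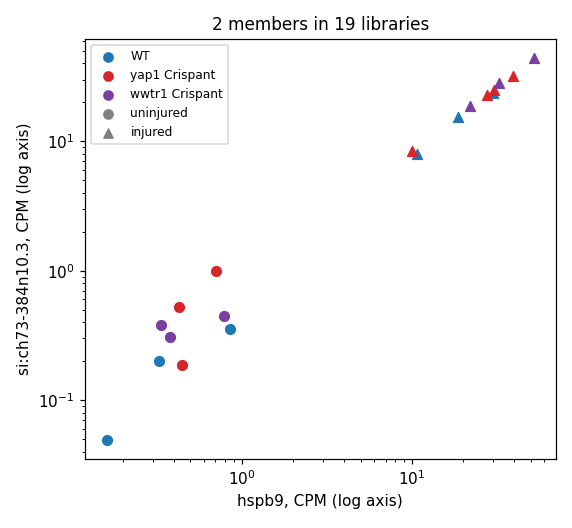
*hspb9* against *si:ch73-384n10.3* in CPM (both axes logarithmic), with colours for genotypes, circles for the 9 uninjured and triangles for the 10 injured libraries. The injured libraries lie along a line of constant ratio between 1.16 and 1.34, and the uninjured libraries scatter below 1 CPM.

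The next steadiest pairs were *si:dkey-283b15.2* with *lamb3* (ratio 3.14 to 4.33), *csf1ra* with *si:rp71-68n21.9* (1.03 to 1.45) and *PLEK* with *ppp1r18* (1.1 to 1.74). *EDNRB* and *tmsb2* kept a ratio of 1.49 to 2.27. In the reference gene order (RefSeq, assembly GRCz12tu, another build than the counts, so used for neighbours only), 42 members were found by symbol, on 19 chromosomes with at most 5 on any. *ahsg2* and *insl5b* were adjacent on chromosome 2, *dicp3.3* and *dicp3.1* lay 1 gene apart on chromosome 16, *abi3a* and *hspb9* had 3 genes between them on chromosome 3, and *ppp1r18* and *tnfaip8l2a* had 17 on chromosome 19. The SD of their log2 ratio was 0.68, 0.75, 0.75 and 0.27, beside the median of 0.67 over all pairs.

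Lists of genes of the same processes were read beside the members. Symbols that could not be matched to a gene ID were not scored. Some of their genes, such as *il11a* and *tnfa*, were also absent or at trace level in the uninjured fin. Of 19 tested chemokine and chemokine receptor genes that were not members, 10 rose with injury in WT, 9 in *yap1* and 9 in *wwtr1* Crispants, and 3, 2 and 2 fell. Over all 20979 genes tested, 8.24%, 5.46% and 6.26% rose in the 3 genotypes (1729, 1146 and 1314 genes), and 1634, 932 and 994 genes fell. Of 20 macrophage genes 17, 12 and 16 rose and 1, 1 and 0 fell. Of 9 neutrophil genes 8, 4 and 6 rose and 0 fell in each. Of 16 matrix proteases and cathepsins 12, 9 and 11 rose and 1, 1 and 0 fell, while the inhibitors of that list were not matched. Of 23 cytokine and receptor genes 8, 7 and 6 rose and 2, 0 and 1 fell. The numbers of risen genes in different genotypes were not tested against each other. Of 11 other heat shock and stress genes 1 rose in each genotype and 1, 0 and 0 fell. Of 19 regeneration and blastema genes 5, 4 and 3 rose and 6 fell in each. Only 20 of the 35 symbols of that list were matched, and *fgf20a*, *inhbaa* and *fn1b* were among those not scored. Of these lists, no gene was called between injured Crispants and injured WT.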

How the data were processed

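Tail fin RNA was sequenced in 19 libraries. The authors deposited raw read counts per Ensembl gene. According to the methods and the submitters' processing notes, reads were trimmed with Trim Galore, aligned with BWA-MEM to GRCz11, sorted with SAMtools and counted with HTSeq. The strand setting is not given in the sources used here, so overlapping or antisense genes may share reads. CPM were computed from the deposited counts and column sums, and are not scaled by gene length. Rankings and ratios of members by CPM thus compare shares of reads, not numbers of transcripts.

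Genotypes were compared within a state in a single fit of all 19 libraries (edgeR 4.0.16, R 4.3.3: filterByExpr over the 6 groups, TMM, robust quasi-likelihood), with Benjamini-Hochberg adjustment over 20979 genes. The study's own tool, DESeq2 (1.42.0), was an alternative, with size factors, filters, fits of 2 groups, a replicate block and leaving out each library. The fit was tested on simulated data. The labels do not say whether replicate numbers pair the libraries, and the main fit held no pairing. Deviations of same-numbered libraries from their group means correlated at −0.22 to 0.41 with those of WT. The highest value was that of replicate 1 of injured *yap1* Crispants and injured WT.

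The members, lists and tests were chosen with earlier results of these data known. Some list genes had been picked by the study from these libraries. Genes described are the 20 highest in injured WT, those called, list members, those nearest the limits, the steadiest and least steady, and neighbours, and the rest are given by range. Gene names came from the reference tables. Promoter motifs and sequences were not analysed here.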

Additional observations from a re-analysis of the deposited data

Results flagged for a closer look

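In the 4 injured *yap1* libraries, a single library lay far from the other 3 for 6 of the 59 members, by the gap to the nearest library divided by the range of the group, set against Dixon's 95% critical value for 4 samples. Chance flags about 1 in 20 groups, or 2.95 of 59. Replicate 4 was the high library for *nkx1.2la* (0.952), *MFAP4* (0.951) and *dicp2.1* (0.873). Replicate 1 was the high library for *LAMA1* (0.880) and *itgae.2* (0.863), and replicate 3 the low library for *si:cabz01074946.1* (0.853). Replicate 4 is the library with 93.9 CPM of lens and eye crystallins, whose part in these values was not tested.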

How the results depend on the processing

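The number of genes chosen depended on the limits: 38 with CPM on TMM-normalized library sizes, 23 and 123 with an uninjured limit of 0.25 and 1 CPM, 97 and 24 with an injured limit of 2 and 5 CPM, 7 when each library had to meet the limits, and 48 to 76 with a library left out (76 without uninjured *yap1* replicate 3, 48 without injured *yap1* replicate 1). With all 4 injured *yap1* libraries 57 were chosen, 56 of them members. DESeq2 called 161, 18, 774 and 21 genes in the injured *yap1*, injured *wwtr1*, uninjured *yap1* and uninjured *wwtr1* comparisons, and 0, 0, 9 and 1 members, where edgeR called 0, 0, 469 and 0 genes and 0, 0, 4 and 0 members. In uninjured *yap1* Crispants 0 members were called with at least 10 counts in each library compared (8 members tested) and 0 with only the 2 groups (41 tested). The 8 held none of the members called in the main fit, whose counts in uninjured WT were too low. The 41 did not hold *insl5b* and ENSDARG00000114141, which were too low for that filter. With a library left out the count ran from 1 to 8 (1 without *yap1* replicate 3 or WT replicate 2, 2 without WT replicate 1 or 3, 8 without *yap1* replicate 1). It stayed at 0 in the other 3 comparisons. The median member's ratio to WT in injured tissue ran from 0.760 to 0.947 for *yap1* and 0.899 to 1.11 for *wwtr1* Crispants with a library left out. With the replicate number as a block, 0, 0, 4 and 0 members and 0, 0, 517 and 0 genes were called. In uninjured WT 42 of the 59 members had under 10 counts in at least 1 library and 15 in all 3, and no member did in an injured library. The causes of these changes were not tested.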
